A study of Xenopus laevis with 8 samples.

Results

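The genes described are immediate early genes and their neighbours in growth factor signalling: egr1, fos, fosl1, fosl2, junb and ier2, the ETS factors etv1, etv4 and etv5, and rasl11b. They were chosen by name, with earlier results of these data known. Rows of a gene count table were taken if the identifier without its .L or .S ending is one of these 10 symbols. Rows whose LOC identifier has such a symbol at NCBI were also taken. This gave 16 of 35649 rows, and 9 of the 10 genes: egr1, fos, fosl1, fosl2, ier2 and rasl11b each with an L and an S copy, junb with an L copy and an unmarked row, etv1 with its S copy and etv4 with its L copy. The rule found no row for etv5, an L copy of etv1 or an S copy of etv4, which were not analysed here. X. laevis is allotetraploid, and L (long) and S (short) name the 2 chromosome sets, so an L and an S row of a gene are its homeologs. The rows fos.L (LOC108698676), fosl1.L (LOC108713936), fosl1.S (LOC108715132), fosl2.S (LOC108717669) and rasl11b.S (LOC108706590) carry LOC names in the deposited table. RefSeq lists junb as a synonym of both junb.L and junb.S, so the unmarked row is called junb here, and it lists Etv1 and xer81 among the synonyms of etv4.L, so that older names of these ETS genes cross.

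The 8 samples are explants of Xenopus laevis gastrulae, in 4 groups of 2. Control ectoderm explants were untreated, and Flag-Pinhead ectoderm explants carried 1.5 ng of RNA encoding Flag-tagged Pinhead (gene pnhd), both at stage 11; they ask what gain of this secreted factor does. Control marginal zone explants were untreated. PhSpMo marginal zone explants had received 40 ng of the MO oligonucleotide PhSpMo in each blastomere at the 4-cell stage. The marginal zone groups ask what interfering with this factor does, and their labels give stage 10.5 where the series text gives 11. Controls were not injected, so an effect of injection cannot be told apart from either treatment, and the labels do not say whether a group's samples came from different clutches. The p-values therefore measure a spread between samples that may be technical.

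Immediate early genes are transcribed within minutes of a signal without the need for new protein. Egr1 is a zinc finger transcription factor, and Fos, Fosl1, Fosl2 and Junb are basic leucine zipper proteins that pair to form the AP-1 transcription factor. Many of these genes are switched on through the Ras, Raf, MEK and ERK kinase cascade, which phosphorylates ETS proteins bound at their promoters; Etv1, Etv4 and Etv5 form the PEA3 group of ETS factors and are known as both targets and effectors of FGF signalling. In the frog gastrula, FGF signalling through ERK is needed to form and keep mesoderm.

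Total counts ran from 12551618 to 19719311 per sample, and all 16 rows passed the filter on low counts. Levels below are normalized counts (CPM), read counts scaled to a common library size that was corrected by the TMM method of edgeR. Between samples the mean chi-square per gene was 2.05 in control marginal zone, 2.27 in control ectoderm and 11.86 in Flag-Pinhead ectoderm. The last includes pnhd.L with the injected RNA. Between the PhSpMo samples it was 1.43, against 2.38 and 2.44 between the 2 columns named for each of them. Their 4 columns were therefore summed to 1 unit with no SD. The range over the columns is given in its place for some of the member rows, and not for other genes. The fit shares 1 spread over all groups, and how well it suits Flag-Pinhead ectoderm was not tested. Mesoderm markers summed to 3270 to 3440 CPM of total counts in control marginal zone and 2810 with PhSpMo, to 1030 to 1130 in Flag-Pinhead ectoderm and to 45.8 to 47.4 in control ectoderm, where 5 of 23 marker rows had no count. Ectoderm markers summed to 5750 to 5770 CPM in control ectoderm, 3320 to 3630 in Flag-Pinhead ectoderm, 3880 to 3990 in control marginal zone and 3380 with PhSpMo, and none of their 18 rows was at 0 in any group. Endoderm markers stood at 41.7 to 44.6, 69.3 to 72.1, 457 to 458 and 283 CPM in the same order. In such bulk samples, fewer cells of a type and less RNA per cell cannot be told apart.

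**Figure D1:**
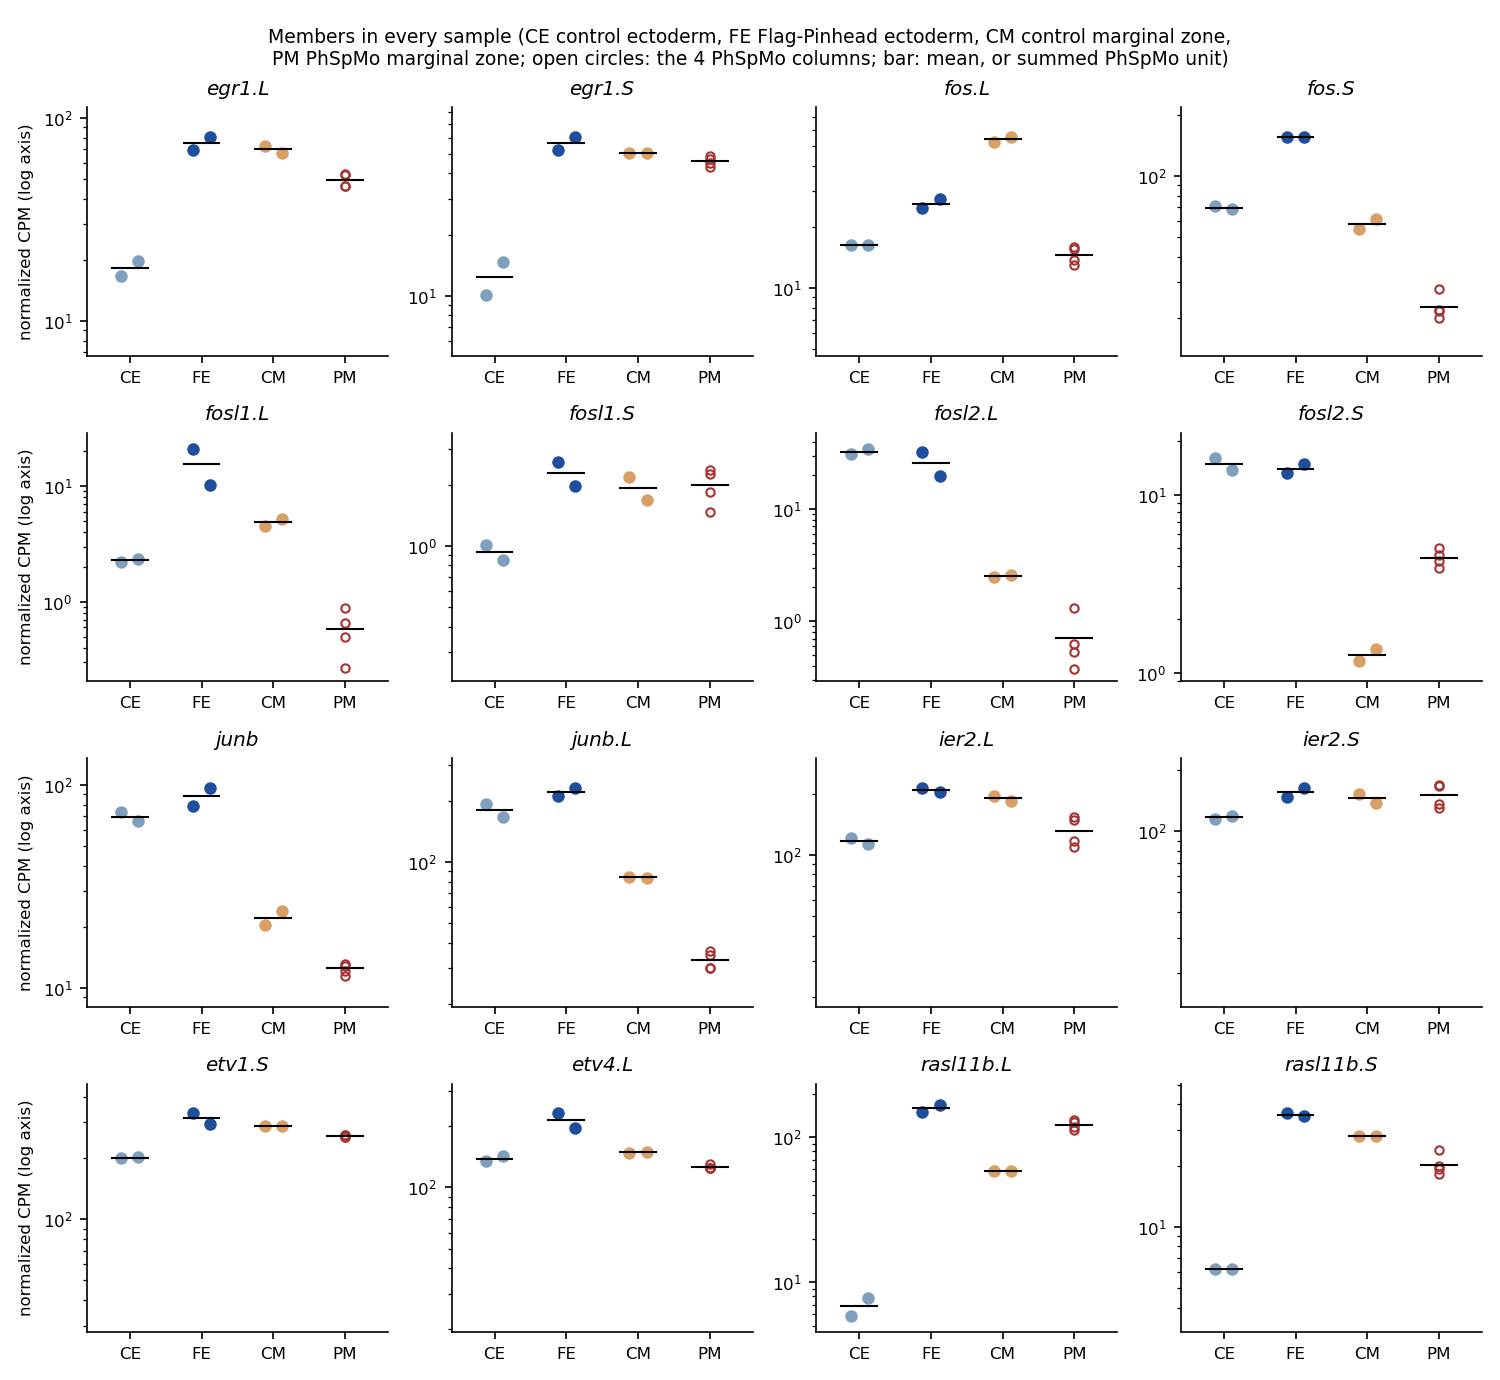
Normalized CPM on a log axis for the 16 rows, with 1 point per sample, the 4 PhSpMo columns as open circles, and a bar at the group mean or at the summed PhSpMo unit. The egr1 copies rose from 16.6 and 19.8 CPM (egr1.L) and 10.1 and 14.7 CPM (egr1.S) to between 52.4 and 80.8 CPM with the RNA, while both fosl2 copies were far lower in marginal zone than in ectoderm.

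Without treatment, the genes fell into 3 sorts by tissue. Higher in the control marginal zone were both copies of egr1, fosl1, ier2 and rasl11b, fos.L and etv1.S, 10 of 16 rows; lower were both fosl2 copies, both junb rows and fos.S. Over all 22241 rows tested, 26.5% were called higher and 26.3% lower at an adjusted p under 0.05 in edgeR's quasi-likelihood test. The largest difference was that of fosl2: fosl2.L stood at 30.7 and 34.4 CPM in the control ectoderm samples and at 2.47 and 2.58 CPM in the control marginal zone samples, and fosl2.S at 16.0 and 13.8 against 1.16 and 1.36 CPM. These are log2 differences of -3.68 (SE 0.21, adjusted p = 6.96e-14) and -3.55 (SE 0.21, adjusted p = 2.27e-13). Both copies thus sat far lower in the marginal zone, 12.8-fold and 11.7-fold. The groups did not overlap, which held for 77.1% of all tested rows. junb.L, at 192 and 167 against 84.1 and 83.8 CPM, and junb, at 73.4 and 66.3 against 20.4 and 23.9 CPM, were lower too, with log2 differences of -1.10 (SE 0.07) and -1.65 (SE 0.10). The rise of fosl1.S lost its call with DESeq2 (adjusted p = 0.147) and without control ectoderm sample 1 or 2 (0.068 and 0.126) or control marginal zone sample 1 (0.157), that of fosl1.L without control marginal zone sample 2 (0.0614), and the fall of fos.S without control marginal zone sample 1 (0.0796). The remaining row, etv4.L, differed by 0.10 (SE 0.07, adjusted p = 0.204). Tissue, stage label and experiment cannot be told apart here.

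With Flag-Pinhead RNA 14 of the 16 rows rose in ectoderm, where 15.5% of all tested rows were called higher and 11.9% lower. None fell in edgeR's test or with DESeq2, and 1, fosl2.L, was lower at an unadjusted p under 0.05 in edgeR (0.0346). DESeq2 called 12 higher, and over all rows it called 3745 in either direction, against 6088 in edgeR's test. The median log2 fold change was 0.75 over the 16 rows and 0 over all rows. Because the genes were chosen with earlier results known, these values do not test whether such genes respond more often than others. Rises ran from 23.4-fold for rasl11b.L to 1.23-fold for junb.L, and the only rows without a call were the copies of fosl2.

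Both copies of egr1 rose, by 4.13-fold and 4.6-fold. egr1.L was at 16.6 and 19.8 CPM in the control ectoderm samples and at 69.2 and 80.8 CPM with the RNA, a log2 change of 2.05 (SE 0.09, adjusted p = 1.93e-15, edgeR). egr1.S went from 10.1 and 14.7 to 52.4 and 60.7 CPM, a change of 2.20 (SE 0.12, adjusted p = 3.33e-14). In both copies the treated samples lay far above the controls. Over all tested rows these groups did not overlap in 60.7%. ier2, which encodes a small nuclear protein induced by growth factors, moved less. ier2.L went from 121 and 113 to 214 and 203 CPM (0.83, SE 0.06, adjusted p = 1.11e-11), and ier2.S from 115 and 119 to 147 and 164 CPM (0.42, SE 0.06, adjusted p = 1.37e-05).

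The AP-1 genes parted by family member. fos.S rose from 70.8 and 68.8 CPM to 156 in both treated samples, a log2 change of 1.16 (SE 0.06, adjusted p = 1.11e-13), and fos.L from 16.4 in both controls to 24.7 and 27.4 CPM (0.67, SE 0.10, adjusted p = 1.29e-05). fosl1.L had the largest change among them, from 2.22 and 2.34 to 20.8 and 10.3 CPM (2.77, SE 0.26, adjusted p = 3.26e-09). Both treated samples of fosl1.L lay above the controls, but far apart, and without Flag-Pinhead sample 1 its log2 change was 2.17. fosl1.S stayed at few counts, 20 and 15 in the controls and 37 and 28 with the RNA. Its change of 1.28 (SE 0.37, adjusted p = 0.0106) lost the call with DESeq2 (0.117) and without control ectoderm sample 2 (0.0877) or Flag-Pinhead sample 1 (0.0879). fosl2.L, at 30.7 and 34.4 against 32.3 and 19.7 CPM, overlapped between groups (-0.32, SE 0.14, adjusted p = 0.104), and so did fosl2.S, at 16.0 and 13.8 against 13.2 and 14.9 CPM (-0.09, SE 0.14, adjusted p = 0.711). fosl2.L was called lower when libraries were scaled to total counts (adjusted p = 0.0197), without the filter (0.0206) and without Flag-Pinhead sample 1 (7.18e-05).

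For junb the rise was small. junb.L was at 192 and 167 CPM in controls and at 211 and 232 CPM with the RNA, a log2 change of 0.30 (SE 0.06, adjusted p = 0.000658), and junb at 73.4 and 66.3 against 79.1 and 97.0 CPM (0.33, SE 0.09, adjusted p = 0.00394). Without control ectoderm sample 2 neither passed (0.0713 and 0.121). The call of junb also ended with DESeq2 (0.0524), with scaling to total counts (0.0541) and without Flag-Pinhead sample 2 (0.122).

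The ETS factors were already abundant in control ectoderm and rose by about the same factor. etv1.S went from 201 and 202 CPM to 333 and 295 CPM, a log2 change of 0.64 (SE 0.06, adjusted p = 1.19e-09). etv4.L went from 135 and 142 CPM to 232 and 197 CPM, a change of 0.63 (SE 0.06, adjusted p = 1.92e-08). Neither gene reached a 2-fold change.

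rasl11b encodes a small GTPase of the Ras-like group, and its L copy had the largest change of the 16 rows in ectoderm. rasl11b.L stood at 5.86 and 7.75 CPM in the control samples and at 149 and 168 CPM with the RNA, and its log2 fold change of 4.55 (SE 0.10, adjusted p = 3.99e-22) ranked 222 of 22241 rows from the largest rise. rasl11b.S went from 6.16 and 6.22 to 36.2 and 34.9 CPM, a change of 2.52 (SE 0.12, adjusted p = 2.02e-15).

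Counts of pnhd.L, which include the injected RNA, were 31800 and 59900 CPM of total counts in Flag-Pinhead samples 1 and 2. In control ectoderm pnhd.L was at 16.1 and 18.3 CPM. pnhd.S was at 14.3 and 10.6 CPM in Flag-Pinhead samples 1 and 2, against 1.06 and 1.43 in control ectoderm. Both egr1 copies, rasl11b.L and junb were among the rows higher in sample 2, and fosl1.L, fosl2.L, etv1.S and etv4.L among those higher in sample 1. With 2 samples no relation to the amount of RNA can be tested. In the PhSpMo samples pnhd.L was at 58.8 and 55 CPM of total counts, against 93.7 and 89.2 in control marginal zone. There pnhd.S was at 34.1 and 38.4 CPM with PhSpMo, against 79.8 and 83.6 in the controls. These counts do not show the level of the protein.

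**Figure D2:**
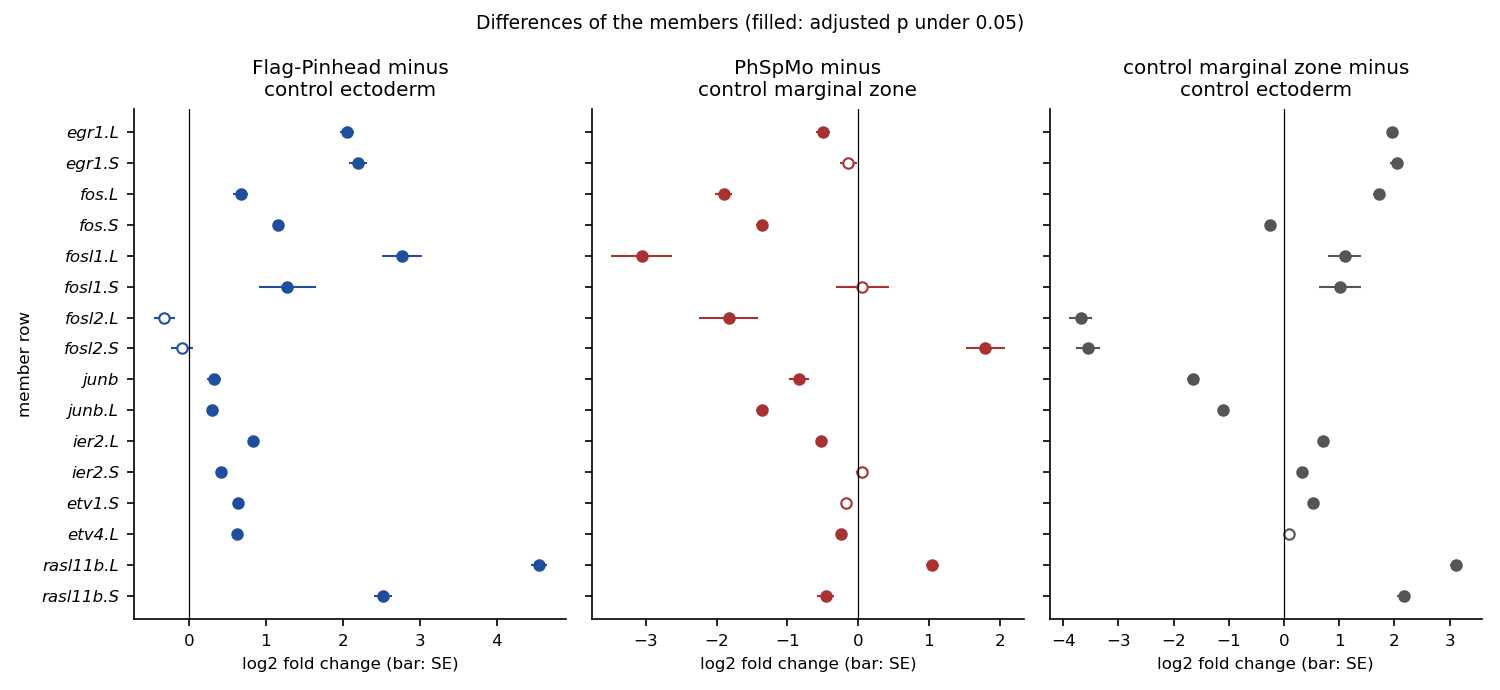
Log2 fold changes with their standard errors for the 16 rows with Flag-Pinhead RNA, with PhSpMo and between the control tissues, filled where the adjusted p is under 0.05. The Flag-Pinhead column lies to the right of 0 for all rows but the fosl2 copies, and the PhSpMo column to its left except for fosl2.S, rasl11b.L, fosl1.S and ier2.S.

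With PhSpMo 10 of the 16 rows fell in marginal zone explants and 2 rose, where 10.5% of all tested rows were called lower and 8.22% higher. The median log2 fold change was -0.48 over the 16 rows and 0 over all rows. The rows that rose, rasl11b.L and fosl2.S, are homeologs of rows that fell. The largest falls were those of both fos copies, fosl1.L, fosl2.L and the junb rows, with smaller ones for egr1.L, ier2.L, etv4.L and rasl11b.S. With PhSpMo as 2 samples, or as 2 units by the last digit of the column names, edgeR called these same 12 rows and also etv1.S. Those fits called 5662 and 5058 of all rows, and they count units that may be technical as replicates. DESeq2 called 8 rows lower and 2 higher, and 2266 of all rows in either direction, against 4153 in edgeR's test.

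Both fos copies fell by more than 2-fold. fos.L was at 52.4 and 55.7 CPM in the control marginal zone samples and at 14.5 CPM with PhSpMo (13.0 to 16.0 over the 4 columns), a log2 change of -1.90 (SE 0.12, adjusted p = 5.67e-12). fos.S went from 54.8 and 61.3 to 22.7 CPM (19.9 to 27.7 over the columns), a change of -1.36 (SE 0.09, adjusted p = 2.66e-11). No PhSpMo column of either copy reached the controls. Over all tested rows the summed PhSpMo unit lay outside the range of the controls in 77.9%.

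Their relatives had few counts in this tissue. fosl1.L had 58 and 81 counts in the controls and 18 over all PhSpMo columns. In CPM fosl1.L went from 4.48 and 5.23 to 0.578 (columns 0.266 to 0.879), a change of -3.06 (SE 0.43, adjusted p = 8.14e-06). fosl1.S, at 2.17 and 1.68 CPM in the controls, was at 1.99 CPM (0.06, SE 0.38, adjusted p = 0.951). The fosl2 copies went opposite ways. fosl2.L fell from 2.47 and 2.58 to 0.706 CPM (columns 0.377 to 1.31), a change of -1.83 (SE 0.42, adjusted p = 0.00248). This change was -1.40 without PhSpMo sample 1 and -2.47 without PhSpMo sample 2. fosl2.S had 15 and 21 counts in the single control samples and 138 summed over all PhSpMo columns. In CPM fosl2.S rose from 1.16 and 1.36 to 4.43 with a column range of 3.89 to 4.99, a change of 1.80 (SE 0.27, adjusted p = 1.68e-05). It stayed below the 16.0 and 13.8 CPM of control ectoderm.

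junb.L fell from 84.1 and 83.8 to 32.8 CPM (columns 29.9 to 36.6), a log2 change of -1.36 (SE 0.09, adjusted p = 2.73e-11), and junb from 20.4 and 23.9 to 12.5 CPM (-0.84, SE 0.14, adjusted p = 5.05e-05). junb is thus lower in marginal zone than in ectoderm without treatment, and lower still with PhSpMo.

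egr1 and ier2 changed less, and in each the L copy alone passed the test. egr1.L went from 73.0 and 67.1 to 49.4 CPM (-0.50, SE 0.10, adjusted p = 0.000555), and egr1.S from 50.4 and 50.7 to 46.0 CPM (-0.14, SE 0.12, adjusted p = 0.486). ier2.L went from 195 and 185 to 131 CPM, with columns at 109 to 153 (-0.53, SE 0.07, adjusted p = 2.82e-06). ier2.S went from 153 and 138 to 151 CPM, with columns at 131 to 169 (0.05, SE 0.08, adjusted p = 0.734). The PhSpMo columns of ier2 fell into pairs by the last digit of their names, at a mean of 151 and 113 CPM for ier2.L and of 169 and 133 CPM for ier2.S. This is the division that sets the PhSpMo columns apart in general, and its source is not known. Other members showed it too, among them fosl2.L (0.922 and 0.499 CPM), fos.S (24.9 and 20.7) and junb.L (35.8 and 29.9). fosl1.L went the other way (0.461 and 0.688), and etv1.S was at 256 CPM in both.

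Among ETS factors, etv1.S was at 289 and 288 CPM in control samples and at 256 CPM with PhSpMo (-0.17, SE 0.07, adjusted p = 0.0817). It was called lower with PhSpMo as 2 samples (0.00951), by the last digit (0.0238), with the replicate block (0.0117), in a fit of only these groups (0.00255) and without Flag-Pinhead sample 1 or 2 (0.00547 and 0.00574). Fits with PhSpMo as 2 units count units that may be technical as replicates, so their p-values may be too small. etv4.L was at 148 and 150 against 126 CPM (-0.24, SE 0.08, adjusted p = 0.0341). The call of etv4.L ended with DESeq2 (0.0998), with scaling to total counts (0.15) and without control marginal zone sample 1 or 2 (0.138 and 0.183), control ectoderm sample 1 or 2 (0.0736 and 0.0696) or PhSpMo sample 1 (0.0563).

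The L copy of rasl11b rose while its S copy fell. rasl11b.L stood at 58.5 and 59.0 CPM in the control marginal zone samples and at 122 CPM with PhSpMo (columns 112 to 131), a log2 change of 1.05 (SE 0.09, adjusted p = 1.06e-09). rasl11b.S, at 28.0 and 27.9 CPM in the controls, was at 20.2 CPM (-0.46, SE 0.12, adjusted p = 0.00581), a call that DESeq2 did not make (0.0728). rasl11b.L is therefore higher with the gain-of-function RNA in ectoderm and also higher with PhSpMo in the marginal zone.

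The level reached in Flag-Pinhead ectoderm was set beside that of control marginal zone, a comparison that shares its samples with those above. Here 10 of the 16 rows were higher in Flag-Pinhead ectoderm and 1 lower, where 31.5% of all tested rows were higher and 28.2% lower. egr1.L differed by 0.10 (SE 0.08, adjusted p = 0.307) and egr1.S by 0.16 (SE 0.10, adjusted p = 0.175) on the log2 scale, although without Flag-Pinhead sample 1 both were called higher, by 0.21 (adjusted p = 0.0352) and 0.27 (0.0303). etv1.S, at 0.12 (SE 0.06), ier2.S, at 0.09 (SE 0.06), and fosl1.S, at 0.26 (SE 0.35), did not pass either; etv1.S passed with PhSpMo as 2 samples (adjusted p = 0.0421), with the replicate block (0.0497) and without Flag-Pinhead sample 2 (0.000465), and ier2.S without Flag-Pinhead sample 1 (0.015). The fos copies stood on opposite sides. fos.S was higher in Flag-Pinhead ectoderm than in marginal zone, by 1.42 (SE 0.07), and fos.L lower, by -1.06 (SE 0.09, adjusted p = 3.59e-10). rasl11b.L exceeded the marginal zone level by 2.70-fold and rasl11b.S by 1.27-fold, though the latter lost its call with DESeq2 (adjusted p = 0.0646) and with scaling to total counts (0.101). fosl1.L was 1.67 (SE 0.24) higher, and 1.08 higher without Flag-Pinhead sample 1. The fosl2 copies were 10.3-fold and 11.1-fold higher and the junb rows 2.64-fold (junb.L) and 3.96-fold (junb), as in control ectoderm. etv4.L was higher by 0.53 (SE 0.07), and ier2.L by 0.13 (SE 0.06, adjusted p = 0.046), a call that ended in 10 of the 17 alternative fits.

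For 6 of the genes the L and S copies could be compared within each sample, as the log2 ratio of L to S, with limma over 4133 homeolog pairs. Ratios of egr1 lay between 1.07 and 1.61 in all units. The difference between the changes of its copies did not pass in any of the 3 comparisons: -0.15 (SE 0.11), -0.36 (SE 0.14) and -0.09 (SE 0.11) with the RNA, with PhSpMo and between tissues, with adjusted p of 0.387, 0.12 and 0.537. For PhSpMo it passed with the PhSpMo samples as 2 libraries, without the replicate block (adjusted p = 0.019, limma) and with it (0.0189). Those 2 libraries may be technical replicates, so these p-values may be too small. The copies of fos, fosl1, ier2 and rasl11b changed unequally with Flag-Pinhead RNA, where 21.8% of all pairs did. Those of fos, fosl1, fosl2, ier2 and rasl11b changed unequally with PhSpMo, against 9.39% of all pairs. Between the control tissues the ratios of fos, ier2 and rasl11b differed, against 47.5% of all pairs.

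rasl11b turned toward its L copy in every comparison. The ratio of L to S was 0.955 and 1.23 in control ectoderm, 4.07 and 4.76 with Flag-Pinhead RNA, 2.07 and 2.10 in control marginal zone and 5.88 with PhSpMo. The change of L exceeded that of S by 2.02 (SE 0.14, adjusted p = 2.57e-09, limma) with the RNA and by 1.50 (SE 0.17, adjusted p = 8.29e-06) with PhSpMo. So the share of the L copy was higher in both treated groups than in their controls. The log2 ratio was also higher in control marginal zone than in control ectoderm, by 0.94 (SE 0.14, adjusted p = 1.49e-05, limma). fos differed most between tissues: its ratio was 0.236 and 0.244 in control ectoderm and 0.957 and 0.909 in control marginal zone, a difference of 1.96 (SE 0.10, adjusted p = 2.67e-11), where 47.5% of all pairs differed. It fell to 0.161 and 0.178 with Flag-Pinhead RNA (-0.51, SE 0.10, adjusted p = 0.00114) and to 0.648 with PhSpMo (-0.53, SE 0.13, adjusted p = 0.0104). The PhSpMo value of fos did not pass without control marginal zone sample 1 (0.0722).

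In fosl2 the ratio ran from 1.31 to 2.44 in the 6 other units and was 0.245 with PhSpMo, a difference of -2.82 (SE 0.34, adjusted p = 1.63e-05) between PhSpMo and control marginal zone. fosl1 rose from 1.80 and 2.09 to 6.91 and 4.34 with Flag-Pinhead RNA (1.49, SE 0.34, adjusted p = 0.00302) and fell from 1.87 and 2.63 to 0.433 with PhSpMo (-2.36, SE 0.41, adjusted p = 0.000841). Both genes rest on few counts in the marginal zone. ier2 moved by 0.42 (SE 0.07, adjusted p = 0.000384) with the RNA and by -0.58 (SE 0.09, adjusted p = 0.000318) with PhSpMo. Its ratio was also higher in control marginal zone than in control ectoderm, by 0.38 on the log2 scale (SE 0.07, adjusted p = 0.000384, limma). How reads that match both copies were counted is not given in the sources used here.

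**Figure D3:**
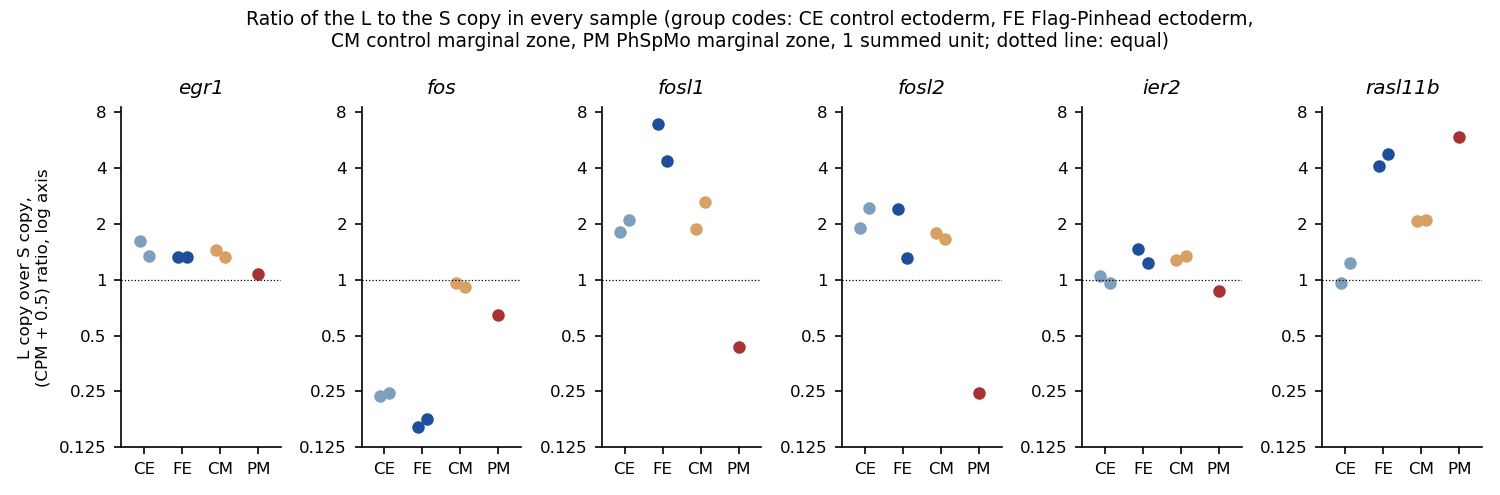
Ratio of the L to the S copy (CPM + 0.5) on a log axis for 6 genes, with 1 point per sample and 1 for the summed PhSpMo unit. rasl11b lies at 4.07 to 5.88 in the treated units against 0.955 to 2.10 in the controls, and fos at 0.161 to 0.244 in ectoderm against 0.648 to 0.957 in marginal zone.

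Other genes of the pathway were taken from lists by name, and their counts are from edgeR's test unless DESeq2 is named. The lists too were chosen with earlier results known, so their counts do not test whether such genes respond more often than others. For comparison, 15.5% of all tested rows were called higher and 11.9% lower with the RNA, and 8.22% higher and 10.5% lower with PhSpMo. DESeq2 called 3745 and 2266 of all rows in either direction, against 6088 and 4153 in edgeR's test. Shares over all rows at an unadjusted p are not given here. Feedback inhibitors of ERK signalling, the Sprouty, Spred and dual specificity phosphatase genes and il17rd, rose with Flag-Pinhead RNA for 15 of 21 tested rows, with a median log2 fold change of 1.03. None fell in edgeR's test, at an unadjusted p under 0.05 or with DESeq2. spry1.L went from 4.36 ± 0.688 to 37.4 ± 6.15 CPM (SD, n = 2 each), spry4.L from 0.908 ± 0.074 to 15.7 ± 2.64 CPM and dusp5.L, an ERK phosphatase gene, from 54.6 ± 0.653 to 133 ± 18.1 CPM. With PhSpMo 8 of the 21 fell and 1, dusp4.L, rose, with a median of -0.18, while DESeq2 called 5 lower and 0 higher; at an unadjusted p under 0.05 in edgeR 3 were higher. dusp5.L fell to 80.6 CPM from 124 ± 1.51 CPM in control marginal zone, and spry2.S to 25.4 from 35.8 ± 2.07 CPM, while spry4.L was at 14.1 against 16.9 ± 0.108 CPM (adjusted p = 0.3, edgeR).

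Immediate early genes outside the set moved both ways with the RNA: 10 of 39 tested rows rose and 7 fell, with a median of 0.12, against 6 and 6 with DESeq2. ier5.L rose from 158 ± 7.17 to 298 ± 3.68 CPM. The orphan nuclear receptor row nr4a1 fell from 89.2 ± 2.08 to 34.3 ± 5.78 CPM, the Krüppel-like factor klf2.S from 57.9 ± 0.973 to 28.7 ± 0.0494 CPM and ier5l.S from 218 ± 5.01 to 123 ± 6.9 CPM. With PhSpMo 12 of the 39 fell (8 with DESeq2) and none rose by either tool, with a median of -0.42, and 2 were higher at an unadjusted p under 0.05 in edgeR. The falls include nr4a1, at 21.0 against 33.5 ± 0.882 CPM, and klf2.S, at 108 against 154 ± 3.04 CPM. Among 19 tested rows of other ETS factors 5 rose and 3 fell with the RNA, and 5 rose and 2 fell with PhSpMo. DESeq2 called 4 higher and 3 lower with the RNA, and 2 higher and 2 lower with PhSpMo. ets2.L rose with the RNA from 84.8 ± 0.735 to 159 ± 11.2 CPM, and ets1.S with PhSpMo from 17.8 ± 0.814 to 40.1 CPM, while elf1.L fell in both arms, by 0.49 and 0.75 on the log2 scale.

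Genes of the ERK cascade itself, from the Ras genes to MAP kinases, had medians near 0: 4 of 30 rose and 7 fell with the RNA, and 6 rose and 2 fell with PhSpMo. DESeq2 called 3 higher and 4 lower with the RNA, and 1 higher and 2 lower with PhSpMo. hras.L fell with PhSpMo from 123 ± 0.802 to 67.5 CPM and map2k1.S, which encodes the kinase MEK1, rose from 67.7 ± 1.33 to 112 CPM. Of 8 tested relatives of rasl11b, 2 rose and 1 fell with the RNA and 1 rose and 2 fell with PhSpMo, and DESeq2 made the same number of calls but for the fall with the RNA. rasl12.S was at 0.288 ± 0.165 CPM in control ectoderm and 3.47 ± 0.703 CPM with the RNA (adjusted p = 6.25e-06, edgeR).

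Stress and p53 genes moved with both treatments: 19 of 24 tested rows rose and 1 fell with the RNA (median 1.10), and 11 rose and 3 fell with PhSpMo (median 0.41). DESeq2 called 17 higher and 1 lower, and 10 higher and 2 lower. mdm2.L, a p53 target, went from 41.0 ± 1.27 to 159 ± 11.8 CPM in ectoderm and from 26.8 ± 2.2 to 130 CPM in marginal zone, and ccng1.S from 28.9 ± 3.15 to 158 ± 2.67 and from 9.85 ± 2.23 to 79.5 CPM. Their part in the changes of the genes above was not tested.

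**Figure D4:**
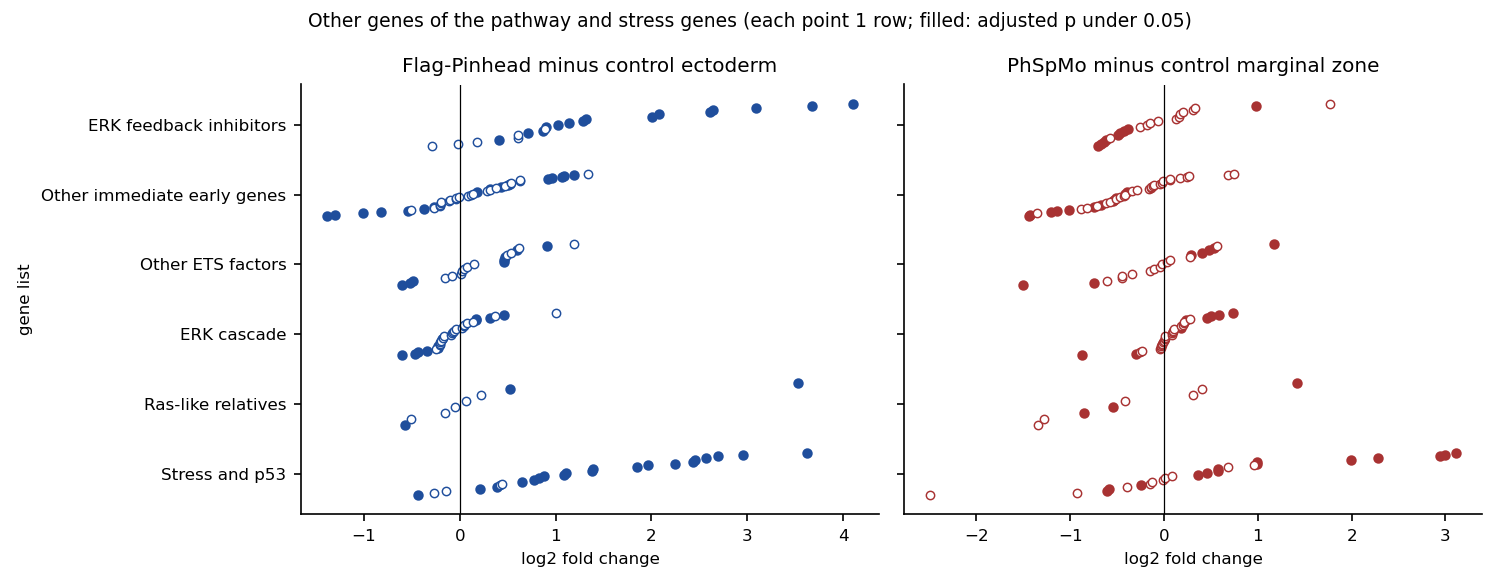
Log2 fold changes of the tested rows of 6 gene lists, 1 point per row, filled where the adjusted p is under 0.05. ERK feedback inhibitors lie mostly to the right with Flag-Pinhead RNA (median 1.03), other immediate early genes mostly to the left with PhSpMo (median -0.42), and stress and p53 genes have medians of 1.10 and 0.41, with rows on both sides of 0 in each comparison.

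The rows most like the most abundant member of each role were found by the root mean square difference of their log2 CPM over the 7 units, each centred on its own mean, among 14487 rows. For rasl11b.L these were tril.S (difference 0.40), XB5848002.L (0.42) and chrd.L (0.54), which encodes the BMP antagonist Chordin. tril.S went from 1.22 ± 0.351 CPM in control ectoderm to 34.1 ± 3.99 with the RNA, and from 8.73 ± 1.11 in control marginal zone to 14.0 CPM with PhSpMo. XB5848002.L went from 9.69 ± 0.837 to 26.7 CPM with PhSpMo. chrd.L did not share this rise, at 8.76 ± 3.86 CPM in control marginal zone and 8.86 CPM with PhSpMo. For ier2.L they were phldb1.S (0.07), slc7a8.L (0.07) and unc50.S (0.09), and for etv1.S pias1.L (0.07), XB22065621.L (0.08) and pdia3.L (0.08). This is a description of 7 units that share 4 groups.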

How the data were processed

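Messenger RNA was selected on oligo(dT) and sequenced on a HiSeq2000 per the labels' protocols, which mention no strand marking. HISAT2, HTSeq, SAMtools and CASAVA 1.8 appear in the submitters' processing notes. Build and counting settings were not given in the sources used here, and no coordinates are printed. The authors deposited raw counts per gene, 35649 rows in 16 columns, 2 per sample, which were added; 2 mistyped column names were taken as control marginal zone sample 1. Of 24441 LOC identifiers, 21106 were found in the RefSeq table of X. laevis v10.1. With the PhSpMo columns summed, 7 units entered the fit with 3 residual degrees of freedom, and the spread of the single PhSpMo unit is taken to be that of the rest. edgeR 4.0.16 (R 4.3.3) was used with filterByExpr (minimum count 10), TMM, 1 mean per group and quasi-likelihood F tests, Benjamini-Hochberg adjusted over 22241 rows at 0.05; SE is the log2 fold change over the square root of F. limma 3.58.1 with a trend tested log2 ratios of L to S copies (pseudocount 0.5 CPM). Both were run on simulated data with the same spread in every group, which does not test whether the real groups share 1 spread. Alternatives were DESeq2 1.42.0, other scalings, filters and units, a replicate block and leaving out each sample. Members and lists were chosen with earlier results of these data known. All member rows are named, and from each other list rows among the 4 with the lowest p, plus dusp4.L, named as the only riser after its value was seen.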

Additional observations from a re-analysis of the deposited data

How the results depend on the processing

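Of 64 member results (16 rows in 4 comparisons), 45 kept direction and side of the threshold in all 17 alternatives run, and 12 of 18 homeolog results did in all 11, 1 of them (PhSpMo as 2 libraries) chosen after seeing the data. Calls lost or gained are given with the results or here. With DESeq2, 3745 rows were called with Flag-Pinhead RNA and 2266 with PhSpMo, against 6088 and 4153; 12 members rose with the RNA. Members called lower with the RNA numbered 1 (fosl2.L) when scaled to total counts and 1 without the filter, and 0 to 1 when leaving out a sample. Leaving out a sample gave 4054 to 6107 calls with the RNA and 2471 to 5257 with PhSpMo, and 559 to 909 and 224 to 524 homeolog pairs. Scaling to total counts moved the median of all rows from 0 to -0.113 with the RNA. In Flag-Pinhead ectoderm against marginal zone it moved from 0.022 to -0.137. In that last comparison it turned the sign of egr1.L (-0.06), ier2.L (-0.02), ier2.S (-0.06) and etv1.S (-0.04).

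Signs also turned on leaving out samples for values near 0: fosl2.S with the RNA (-0.19 to 0.02), egr1.L in Flag-Pinhead ectoderm against marginal zone (-0.01 to 0.21), fosl1.S (-0.12 to 0.24) and ier2.S (-0.02 to 0.12) with PhSpMo, and the homeolog differences of fosl2 with the RNA (-0.71 to 0.15), and of egr1 (-0.22 to 0.04) and fosl1 (-0.05 to 0.44) between tissues. The homeolog difference of fosl2 between tissues passed with a pseudocount of 2 (adjusted p = 0.0441, limma).

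Same-numbered samples did not deviate together over all rows (correlations of deviations from -0.021 to 0.014). This cannot exclude a pairing, because rows with few counts weigh as much as others. Also, which PhSpMo columns belong to which sample is not certain. With PhSpMo as 2 libraries and the replicate block 14 members were called higher with the RNA. With PhSpMo 11 were lower and 2 higher, and these counts were the same without the block. Over all rows the fit with the block called 6294 with the RNA and 5500 with PhSpMo, against 6088 and 4153 with the columns summed. Homeolog pairs that differed with PhSpMo numbered 388 with the columns summed, 766 with PhSpMo as 2 libraries and 740 with the block added. The causes were not tested. Rows under 1 CPM rest on few counts.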
